A study of Triticum aestivum with 14 samples.

Results

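The accessible chromatin regions (ACRs) of the homoeologous group 7 chromosomes of bread wheat, 7A, 7B and 7D, are described here. An ACR is a stretch of DNA at which the transposase Tn5 inserted sequencing adapters often enough to be called a peak in ATAC-seq. Every ACR on these chromosomes in the 6 deposited peak lists was taken, which gave 130372 of 892288 ACRs, and none was left out. Of them, 43219 lay on 7A, 40134 on 7B and 47019 on 7D. Merging ACRs of the 6 lists that overlapped by at least 1 bp gave 43534 consensus regions on group 7, of 289328 over all 21 chromosomes.

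The plants were of the winter cultivar AK58, and all were grown under 16 h of light at 22°C and 8 h of dark at 19°C. The tissues were leaf, axillary bud and shoot apex, and they came from unvernalized plants after 2 weeks of growth, or from vernalized plants that had spent 1 month at 4°C followed by 1 day back in the greenhouse. The series described 14 samples in 7 groups of 2, namely the 6 combinations of tissue and condition and an input group that was not analysed here. Each combination had 1 list, which leaves no spread between replicates, and all comparisons are between single lists without p-values.

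The lists hold positions without read counts, and sequencing depth was not taken into account here. Intervals in the text are 95% intervals of counting error alone, and ACRs close to each other are not independent of one another. In whole tissue, a change in the mix of cells and a change in the accessibility of each cell cannot be told apart. Condition also differs in plant age and in the days spent in the greenhouse, which cannot be told apart from the cold itself.

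Bread wheat joined 3 related diploid genomes, and the A, B and D copies of a chromosome, its homoeologues, carry largely the same genes in the same order. The short arms of group 7 carry the homoeologues of VRN3, the wheat counterpart of the florigen gene FT, whose product moves from leaf to shoot apex and promotes flowering. Chromosome 7B differs from its partners in structure, because an old translocation carried the end of its short arm to the long arm of 4A. In wheat, genes and open chromatin are concentrated towards the chromosome ends, while the regions around the centromere are rich in repeats. No gene annotation of the assembly used for the lists, IWGSC RefSeq v1.0, was at hand, so the genes around the sites below are not given.

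Accessible regions were densest on 7D, followed by 7A and then 7B, in all 6 lists. The lead of the D chromosome was not particular to group 7. In consensus regions per Mb the D chromosome was the densest in every homoeologous group. Among the 7 chromosomes of its own sub-genome, 7A ranked 5 and 7B ranked 6 in density in every list. 7D ranked 7 in vernalized leaf and 6 in the other lists. In leaf the density was 8.27 ACRs per Mb on 7A, 7.53 on 7B and 10.4 on 7D. In vernalized leaf it was 7.62 ACRs per Mb on 7A, 7.57 on 7B and 10.2 on 7D. The 2 leaf lists thus gave 7A and 7B similar densities after vernalization, but not before. Axillary bud held 11.96 ACRs per Mb on 7A, 10.8 on 7B and 14.6 on 7D, and vernalized axillary bud held 11.9, 10.5 and 14.9 ACRs per Mb in the same order. Shoot apex held 8.90, 7.91 and 10.8 ACRs per Mb on 7A, 7B and 7D, and vernalized shoot apex 10.1, 9.15 and 12.7. The bud lists were the densest on each homoeologue, and in the shoot apex the vernalized list was denser than the unvernalized one on all 3.

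The ratio of the density on 7D to that on 7B lay between 1.34 in vernalized leaf (95% interval 1.296 to 1.39) and 1.42 in vernalized axillary bud (1.38 to 1.46). Between 7A and 7B the ratio lay between 1.10 and 1.13 in 5 lists, and in vernalized leaf it was 1.007 with an interval of 0.971 to 1.05. The order of 7A and 7B in vernalized leaf was therefore within counting error. Chromosome length, measured to the last ACR of any list, was 736.7 Mb for 7A, 750.6 Mb for 7B and 638.7 Mb for 7D. ACRs covered between 0.417% of 7B in vernalized leaf and 1.37% of 7D in axillary bud.

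Among the 7 homoeologous groups, group 7 had the lowest density in leaf, at 8.64 ACRs per Mb, and in vernalized leaf, at 8.37 ACRs per Mb. In leaf the next group was also at 8.64, so this place is within counting error, while in vernalized leaf the next was at 8.70. The remaining 18 chromosomes together had 9.26 and 9.09 ACRs per Mb in these lists, giving ratios of 0.933 (0.918 to 0.947) and 0.920 (0.906 to 0.935). In axillary bud and vernalized axillary bud the ratio was 0.988 (0.975 to 1.001) and 0.992 (0.979 to 1.005), and both intervals include 1. Shoot apex had a ratio of 0.962 (0.947 to 0.976), and vernalized shoot apex 0.952 (0.939 to 0.966). Against the other 18 chromosomes together, the shortage of ACRs on group 7 was thus clearest in the leaf lists and not detectable in the bud lists. Among the 7 groups, group 7 was not the lowest in the apex lists, where it ranked 5 in shoot apex and 4 in vernalized shoot apex.

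**Figure D1:**
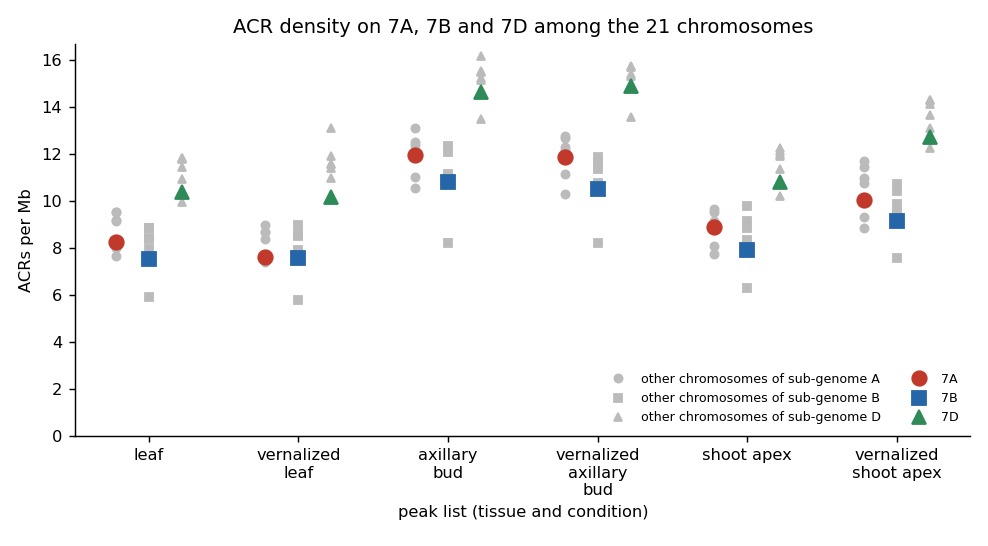
ACRs per Mb (vertical axis) in each of the 6 peak lists (horizontal axis), with 1 point per chromosome, large coloured symbols for 7A, 7B and 7D and small grey symbols for the other chromosomes of the same sub-genome. 7D lies above 7A and 7B in every list, and in vernalized leaf 7D, at 10.2 ACRs per Mb, lies below every other chromosome of the D sub-genome.

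Wide ACRs were also less frequent on group 7 than elsewhere. The share of ACRs at least 1 kb wide was the lowest of the 7 groups in all 6 lists. In leaf it was 12.9% on 7A, 13.5% on 7B and 14.8% on 7D, against 15.1% on the other 18 chromosomes together. In axillary bud it was 32.2%, 29.9% and 30.9% on 7A, 7B and 7D, against 33.4%. Vernalized axillary bud had 23.0%, 22.8% and 23.9%, against 25.7%. Each homoeologue was thus below the pooled value of the other chromosomes in these lists.

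The remaining lists gave the same picture. Vernalized leaf had 11.3% on 7A, 10.99% on 7B and 11.4% on 7D, against 11.9% on the other 18 chromosomes. Shoot apex had 16.1%, 16.9% and 17.2%, against 18.2%. In vernalized shoot apex the shares of 17.5% on 7A, 17.7% on 7B and 18.3% on 7D all lay below the lowest of the other 18 chromosomes, at 18.5%. The difference between group 7 and the other 18 chromosomes was smallest in vernalized leaf, at -0.697 percentage points (-1.19 to -0.187), and widest in vernalized axillary bud, at -2.47 points (-3.02 to -1.91). All 6 intervals excluded 0.

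Widths are less comparable between lists than within them. The authors built ACRs from bins of 150 bp that overlap by 50 bp, and the share of group 7 ACRs whose width was a whole number of such bins was 34% in leaf, 41.9% in vernalized leaf, 94.3% in axillary bud, 95.4% in vernalized axillary bud, 13.1% in shoot apex and 77.1% in vernalized shoot apex. Its part in the differences between lists was not tested. Median width on group 7 was 435 bp in leaf, 385 bp in vernalized leaf, 650 bp in axillary bud, 450 bp in vernalized axillary bud, 421 bp in shoot apex and 450 bp in vernalized shoot apex. In axillary bud and vernalized shoot apex every other homoeologous group had the same median as group 7. In the other lists the median of group 7 was the lowest of the 7 groups. Between homoeologues the medians differed most in vernalized leaf, with 407 bp on 7A, 380 bp on 7B and 375 bp on 7D, where 7B and 7D had the lowest medians of the 21 chromosomes. In leaf they were 429 bp, 432 bp and 442 bp.

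Position along the chromosome set 7B apart. In each list the outer 10% of the length at both ends, 20% of the chromosome in all, held a larger share of the ACRs of 7D than of 7B. In leaf this share was 35.7% on 7A, 28.8% on 7B and 41.2% on 7D. In shoot apex it reached 50.3%, 40.4% and 54.3%. Shoot apex was thus the list with the highest terminal share on each homoeologue. The share in axillary bud was 34.8% on 7A, 29.0% on 7B and 38.1% on 7D, and in vernalized axillary bud 40.5%, 33.2% and 44.4%. For vernalized leaf it was 35.01%, 28.5% and 35.8%, and for vernalized shoot apex 41.3%, 34.7% and 45.2%.

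The difference between 7D and 7B lay between 7.25 percentage points in vernalized leaf (5.59 to 8.90) and 13.9 points in shoot apex (12.2 to 15.6). The difference between 7A and 7B lay between 5.82 points in axillary bud (4.42 to 7.22) and 9.88 points in shoot apex (8.14 to 11.6). Terminal enrichment was therefore weaker on 7B than on both partners beyond counting error in every list. Between 7D and 7A the difference was 0.779 points in vernalized leaf, with an interval of -0.930 to 2.48, and between 3.27 and 5.48 points in the other 5 lists, with intervals above 0.

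The short-arm end of 7D ranked high among the chromosomes. Its first 10% held 22.2% of the ACRs of 7D in leaf, 19.5% in vernalized leaf, 20.1% in axillary bud, 23.4% in vernalized axillary bud, 29.3% in shoot apex and 24.2% in vernalized shoot apex. This share was above that of each other D chromosome in all 6 lists. It was the highest of the 21 chromosomes in 4 lists, all but vernalized leaf and axillary bud. In leaf and vernalized axillary bud the next chromosome was close, at 21.7% and 22.8%. In shoot apex and vernalized shoot apex the next was at 26.8% and 23.1%. The long-arm end of 7D did not rank high in this way, with shares between 16.3% in vernalized leaf and 25.04% in shoot apex. On 7B the first 10% held between 12.2% of ACRs in vernalized leaf and 18.2% in shoot apex. On 7A it held between 16.4% in axillary bud and 23.6% in shoot apex.

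Counted as consensus regions, the first 10% of 7D carried 54.2 regions per Mb, that of 7A 35.8 and that of 7B 26.3. In the last 10% the densities were 47.9 regions per Mb on 7D, 40.3 on 7A and 31.1 on 7B. In the middle 30% of the length the order was different, with 13.3 regions per Mb on 7D, 11.5 on 7B and 10.3 on 7A. In consensus regions, the density of 7B was thus the lowest at both ends and not in the middle. In the single lists the middle of 7B held 4.77 ACRs per Mb in leaf, against 4.88 on 7A, and 6.00 in vernalized leaf, against 5.99, and it was above 7A in the bud and apex lists. On 4A, which received the segment from the short arm of 7B, the last 10% carried 30.4 regions per Mb. The short-arm ends of 7A and 7D carried 35.8 and 54.2. The densest part of 4A lay outside its last 10%, from 80% to 85% of the length, at 42.5 regions per Mb. No breakpoint was located in these lists.

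**Figure D2:**
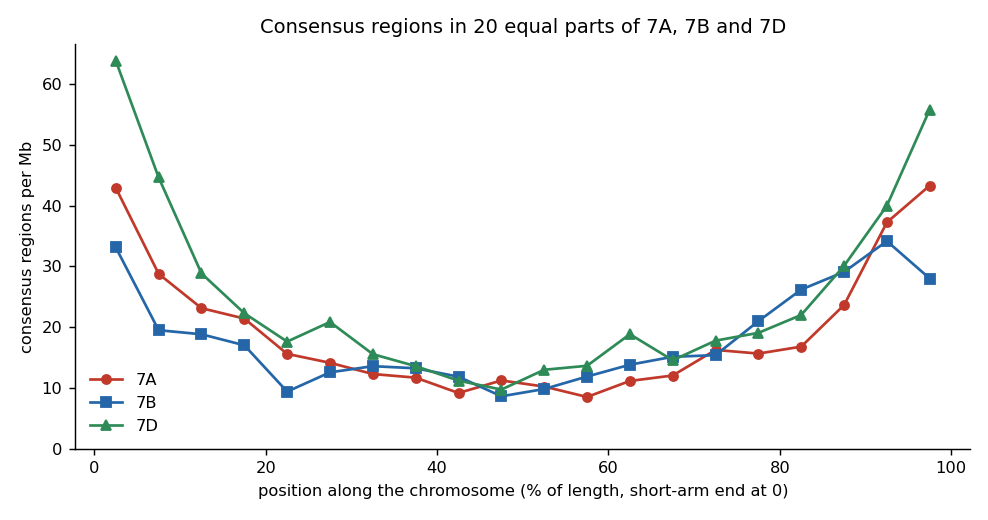
Consensus regions per Mb (vertical axis) in 20 equal parts of 7A, 7B and 7D, by position in percent of the chromosome length with the short-arm end at 0 (horizontal axis). 7A and 7D rise towards both ends, while 7B has a lower short-arm end and its last part is below the one before it.

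Over 20 equal parts of the length, the profiles of 7A and 7D were the most alike, with a Pearson correlation of 0.966. The correlation was 0.845 for 7A and 7B and 0.806 for 7B and 7D. Leaving out the 2 parts at each end gave 0.909, 0.708 and 0.772 over 16 parts. These correlations are descriptions over parts of chromosomes, with reads aligned to 1 reference. The 5 Mb window with the most consensus regions lay at the start of 7D, from 1 to 5000000, with 437 regions. On 7B it lay likewise from 1 to 5000000, with 294 regions, and on 7A it lay at the other end, from 725000001 to 730000000, with 346 regions.

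Sharing among the 6 lists was next examined. On group 7, 4906 consensus regions, or 11.3%, were called in all 6 lists, compared with a background of 12.5% over all chromosomes. The share was 11.6% on 7A (11.1% to 12.2%), 11.1% on 7B (10.6% to 11.6%) and 11.1% on 7D (10.6% to 11.6%). These were the 3 lowest values of the 21 chromosomes, since the other 18 ranged from 11.9% to 13.8%. The difference between group 7 and the other 18 chromosomes was -1.45 percentage points (-1.77 to -1.12). Among the 3 homoeologues no pair differed beyond counting error in this share.

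The shares were also taken by width. Merging widens a region with every list that calls it, so width is in part set by the sharing itself, and these values are a description. Of consensus regions at least 2000 bp wide, 58.8% (57.2% to 60.4%) on group 7 were called in all 6 lists, compared with 63.3% (62.7% to 64.0%) elsewhere. Among regions between 1000 and 2000 bp the shares were 28.8% (27.8% to 29.8%) and 30.5% (30.04% to 30.9%). For regions between 500 and 1000 bp they were 5.52% (5.10% to 5.96%) and 5.46% (5.28% to 5.64%). Regions at least 2000 bp wide made up 7.91% of the consensus regions of group 7 and 8.97% of the others.

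By position, the difference was found at the long-arm end and in the zones between the ends and the middle. In the last 10% of the length, 10.8% (10.1% to 11.5%) of group 7 regions were called in all 6 lists, compared with 13.5% (13.3% to 13.8%) on the other chromosomes. Between the ends and the middle the shares were 11.1% (10.7% to 11.6%) and 13.0% (12.8% to 13.2%). In the first 10% the shares were 11.4% (10.7% to 12.1%) and 11.5% (11.2% to 11.9%), and in the middle 30% they were 12.1% (11.4% to 12.9%) and 12.03% (11.7% to 12.3%). At the short-arm end and in the middle no difference from the rest was detectable.

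**Figure D3:**
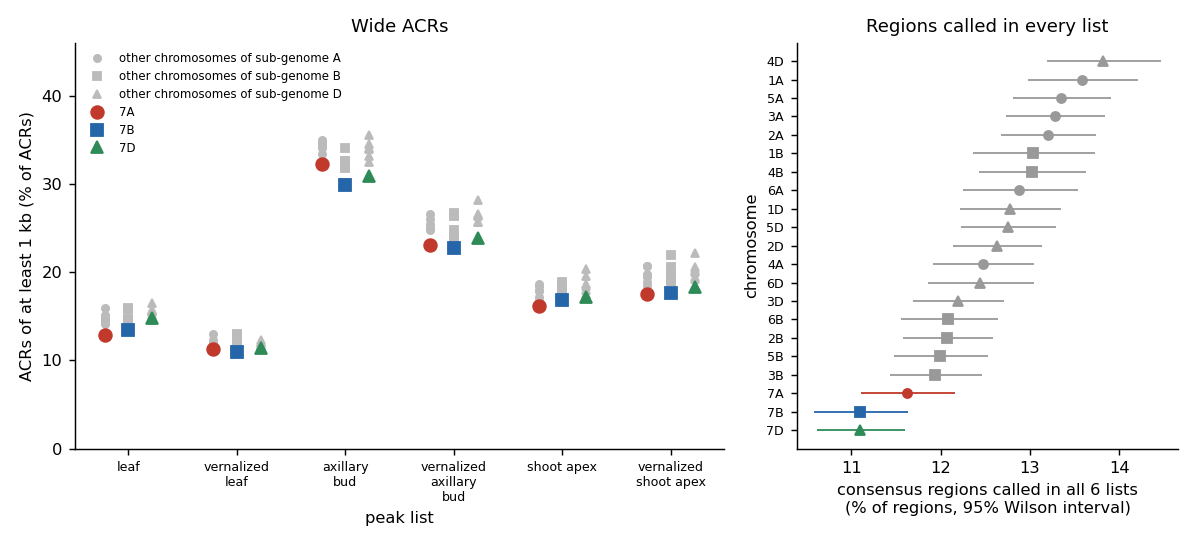
Left, ACRs at least 1 kb wide in percent of the ACRs of a chromosome (vertical axis) in each peak list (horizontal axis), with coloured symbols for 7A, 7B and 7D and grey symbols for the other chromosomes. Right, consensus regions called in all 6 lists in percent of the regions of each chromosome (horizontal axis, points with 95% Wilson intervals), in descending order, where 7A, 7B and 7D take the last 3 places at 11.6%, 11.1% and 11.1%.

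Regions called in 2 lists made up 15.6% of group 7, against a background of 15.01%, and those in 3 lists 12.02%, against 11.5%. In 4 lists the share was 10.7%, against 10.4%, and in 5 lists 9.79%, against 9.96%. The difference from the other 18 chromosomes was 0.673 points in 2 lists (0.307 to 1.04) and 0.571 points in 3 lists (0.243 to 0.904). In 4 lists it was 0.300 points, with an interval of -0.0109 to 0.617 that includes 0. At the other extreme, 40.7% of group 7 regions were called in 1 list, against 40.6%. This share was lower on 7A, at 39.3%, than on 7B, at 41.4%, and 7D, at 41.2%. The other A chromosomes lay between 38.4% and 39.7%, so the low share was not particular to 7A. The difference between 7A and 7B was -2.13 percentage points (-3.28 to -0.977), and that between 7D and 7A was 1.95 points (0.838 to 3.06). The same gap was seen in vernalized leaf, the single list with the most regions of its own. It alone called 1696 regions of 7A, or 11.9%, which was the lowest share of the 21 chromosomes, against a background of 13.9%. On 7B it alone called 1926 regions, or 14.2%, and on 7D 2211 regions, or 14.0%. On the other A chromosomes this share ranged from 12.3% to 13.9%.

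Regions found only in vernalized leaf made up a larger share of the regions in the middle of the homoeologues than of those at the ends. They made up 25.6% of consensus regions in the middle 30% of group 7, and 9.79% in the outer 10% at both ends. In the middle the share was 29.5% on 7D, 24.6% on 7A and 22.7% on 7B, with 22.2% on the other 18 chromosomes. Next to vernalized leaf, axillary bud alone called the most regions of group 7, namely 3684 or 8.46%, against a background of 8.19%. Vernalized axillary bud alone called 859 regions of 7D, and this 5.46% was the highest share of the 21 chromosomes, against a background of 4.66%. Both bud lists and no other called 2079 group 7 regions, or 4.78%, with a background of 4.39%.

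Other classes of group 7 regions were near their backgrounds. Regions called in every list but vernalized leaf numbered 2740, or 6.29%, against 6.19%. Those called in the 4 bud and apex lists and in neither leaf list numbered 2135, or 4.90%, against 4.65%. Leaf alone called 1764 regions, or 4.05%, against 4.14%, shoot apex alone 2284, or 5.25%, against 5.14%, and vernalized shoot apex alone 1924, or 4.42%, against 4.59%. On 7A, 7B and 7D the share called in leaf alone was 3.75%, 4.00% and 4.37%.

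The likeness of 2 lists was also measured as the Jaccard index, the bases shared by both over the bases covered by either. On group 7 the index was highest for the 2 bud lists, at 0.587, followed by vernalized axillary bud and vernalized shoot apex at 0.516. It was lowest for vernalized leaf and axillary bud, at 0.182. In all 15 pairs of lists group 7 had a lower index than the other 18 chromosomes together. For each of the 9 pairs that included a leaf list, all 3 homoeologues lay below the lowest of the other 18 chromosomes. For leaf and vernalized leaf, for instance, the index was 0.299 on 7A, 0.300 on 7B and 0.298 on 7D, while the others ranged from 0.310 to 0.334. For vernalized axillary bud and shoot apex none of the 3 lay below the others. Among the homoeologues 7A had the lowest index in 11 of the 15 pairs.

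**Figure D4:**
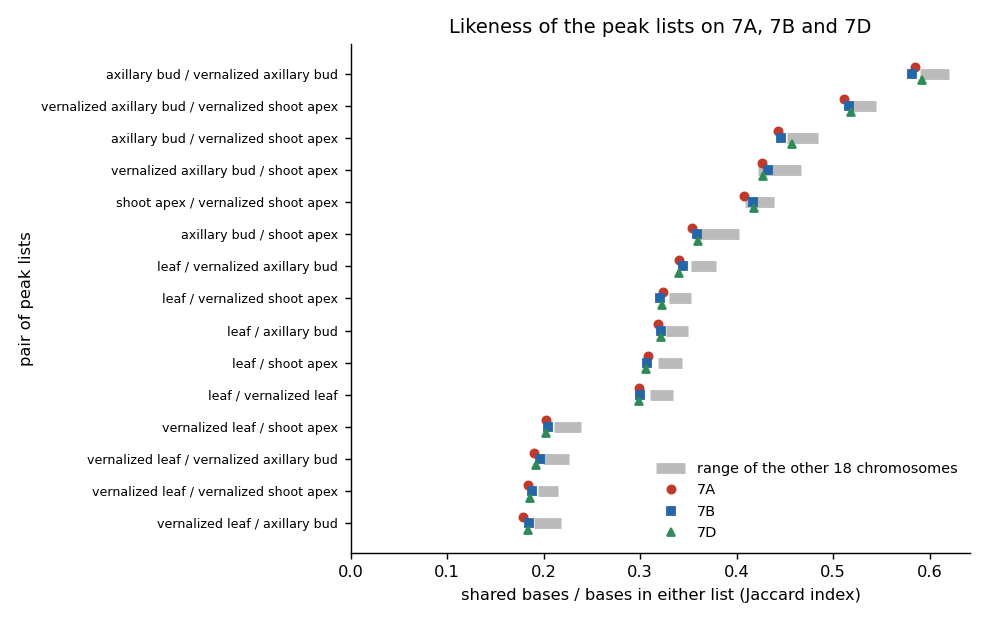
Jaccard index (horizontal axis, shared bases over bases in either list) for the 15 pairs of peak lists (vertical axis), with coloured symbols for 7A, 7B and 7D and a grey bar for the range of the other 18 chromosomes. In the 9 pairs with a leaf list all 3 symbols lie to the left of the bar.

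The tissues were then compared within each condition. An ACR that overlapped no ACR of the other 2 tissues under the same condition is called tissue-only here. In leaf 19.2% of group 7 ACRs were tissue-only, against a background of 18.5%. The share was 20.7% on 7D, the highest of the 21 chromosomes, 19.3% on 7B and 17.5% on 7A. In vernalized leaf the share on group 7 was 47.1%, against a background of 44.7%, and 7B at 48.5% and 7D at 48.1% held the highest 2 places of the 21 chromosomes while 7A was at 44.4%. In both leaf lists 7A had fewer tissue-only ACRs than 7B and 7D beyond counting error. Its shares lay within the range of the other A chromosomes, 16.5% to 18.9% in leaf and 41.0% to 44.9% in vernalized leaf. The difference between 7A and 7B was -1.85 points (-3.26 to -0.450) in leaf and -4.12 points (-5.96 to -2.28) in vernalized leaf.

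In axillary bud 37.4% of group 7 ACRs were tissue-only, against a background of 36.2%. The share was 37.0% on 7A, 37.1% on 7B and 38.1% on 7D, and these 3 did not differ beyond counting error. Vernalized axillary bud had 28.2%, against 26.4%, with 28.5% on 7A, 27.2% on 7B and 28.9% on 7D. Shoot apex had 21.9%, against 20.5%, and vernalized shoot apex 15.5%, the same as its background of 15.5%. The difference between group 7 and the other 18 chromosomes was 0.880 percentage points in leaf (0.272 to 1.499), 2.76 in vernalized leaf (1.97 to 3.55) and 0.00807 in vernalized shoot apex (-0.499 to 0.526). Group 7 therefore held an excess of tissue-only ACRs in 5 lists, and no excess was detectable in vernalized shoot apex. Under a reciprocal overlap of at least 50% the excess over the 3 unvernalized lists was 0.380 points with an interval of -0.0351 to 0.795, and over the 3 vernalized lists 0.177 points with an interval of -0.235 to 0.588.

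Vernalization was followed by comparing the lists of each tissue. In shoot apex the number of ACRs on group 7 rose by 15.5%, while it fell by 3.12% in leaf and for axillary bud it fell by 0.548%. The other 18 chromosomes together changed by 16.7%, -1.80% and -0.915% in the same order, and all 21 chromosomes rose in shoot apex, so nothing particular to group 7 is read from these whole-chromosome changes. In leaf it fell by 7.85% on 7A and fell by 1.89% on 7D, while on 7B it was higher by 0.549%. For axillary bud the number was higher by 1.69% on 7D, the second highest value of the 21 chromosomes, and fell by 0.829% on 7A and fell by 2.82% on 7B. In shoot apex all 3 homoeologues gained, by 13.0% on 7A, 15.7% on 7B and 17.8% on 7D. Differences between homoeologues in these changes were not tested.

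An ACR of the unvernalized list that overlapped a vernalized ACR was counted as retained. In leaf, 48.6% of ACRs on 7A, 48.7% on 7B and 47.7% on 7D were retained. This share was the lowest of the 7 groups in leaf, and group 7 differed from the other 18 chromosomes by -1.97 percentage points (-2.75 to -1.19). In axillary bud 75.7%, 75.5% and 77.1% were retained on 7A, 7B and 7D, and in shoot apex 65.2%, 66.3% and 67.2%. The difference from the other chromosomes was -0.290 points in axillary bud (-0.852 to 0.266) and -1.44 points in shoot apex (-2.16 to -0.726). On 7D more was retained than on 7A by 1.43 points in axillary bud (0.198 to 2.67) and by 2.00 points in shoot apex (0.406 to 3.60). Under a reciprocal overlap of at least 50% the difference in shoot apex was -0.100 points, with an interval of -0.844 to 0.647.

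ACRs without an overlap in the other condition were counted as gained or lost. In leaf, group 7 gained 8787 ACRs, or 49.4% of its vernalized ACRs, against a background of 48.2%, and lost 9491, or 51.7%, against 50.01%. Axillary bud gained 4974 ACRs, or 19.0%, against 17.9%, and lost 6275, or 23.9%, against 23.6%. Shoot apex gained 9935 ACRs, or 44.3%, against 44.2%, and lost 6548, or 33.8%, against 32.5%. In leaf the gained and lost shares of group 7 were the highest of the 7 groups, where the others reached 48.9% and 50.4%. In axillary bud the gained share was also the highest, where the others reached 18.3%. The gained share in shoot apex and the lost share in axillary bud were within counting error of the other 18 chromosomes. The lost share in shoot apex was above theirs beyond counting error under this overlap rule. Turnover was greatest in leaf, where gains and losses nearly offset each other.

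By homoeologue, leaf gained 2640 ACRs on 7A, 2888 on 7B and 3259 on 7D, and lost 3134, 2897 and 3460. Axillary bud gained 1642, 1430 and 1902 ACRs on 7A, 7B and 7D, and lost 2143, 1991 and 2141. Shoot apex gained 3257, 3048 and 3630, and lost 2281, 2003 and 2264. Losses exceeded gains on all 3 homoeologues in leaf and axillary bud, although on 7B in leaf by less than counting error, and gains exceeded losses on all 3 in shoot apex. The number of ACRs nevertheless rose from 9354 to 9512 on 7D in axillary bud, and from 5649 to 5680 on 7B in leaf. Gains and losses leave out overlapping ACRs, and an ACR can overlap several of the other list. Gains minus losses therefore need not equal the change in number. How far splitting or joining of ACRs contributed to the changes in number was not tested. Changed ACRs were narrow. The median width in leaf was 341 bp for lost and 321 bp for gained ACRs, and 578 bp for those retained.

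Gained and lost ACRs differed in where else they were called. Of the ACRs lost from leaf on group 7, 81.4% (7727 of 9491) were called in at least 1 list of bud or shoot apex. Of those gained in leaf, 33.6% (2954 of 8787) were. The ACRs lost from leaf were thus mostly called in other tissues, and those gained were mostly not. The 2 leaf lists also differed as a whole. Of all group 7 ACRs, 19.2% in leaf and 47.1% in vernalized leaf were tissue-only within their condition. How far the contrast is particular to lost and gained ACRs was not tested. In shoot apex 80.6% of gained and 65.1% of lost ACRs were called in another tissue, and in axillary bud 55.5% of gained and 41.3% of lost ACRs were. For these shares of gained and lost ACRs, the other 18 chromosomes had values within 2 percentage points in each case.

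The direction of change depended on the position along the chromosome, and differed between tissues. In leaf the number of ACRs in the middle 30% of group 7 rose by 33.0% (27.0% to 39.3%), from 3176 to 4225, while in the outer 10% at both ends it fell by 9.49%, from 6531 to 5911. Axillary bud showed the opposite, with a number that fell by 13.9% in the middle, from 4260 to 3666, and rose by 15.5% (12.3% to 18.8%) at the ends, from 8978 to 10371. In shoot apex the middle rose by 23.8% (17.4% to 30.7%), from 2416 to 2992, and the ends fell by 3.52%, from 9451 to 9118. Counted as covered length, the outer change was 1.81% in axillary bud and 0.453% in shoot apex, so at the ends the number and the covered length did not move alike. Among the 126351 widest ACRs of each list, the change in the middle in shoot apex was 3.89%, with an interval of -1.88% to 9.99%.

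The other 18 chromosomes moved in the same direction in leaf and axillary bud. In leaf their middle changed by 16.6% and their ends by -4.64%, and in axillary bud by -13.9% and 11.4%. In shoot apex their middle changed by 29.5% and their ends by 2.66%. At the ends in shoot apex the single chromosomes among these 18 ranged from -8.95% to 17.1%, and 7A, 7B and 7D changed by -7.27%, -0.708% and -2.03%, all within that range. The sign for group 7 there was not stable, and turned positive by covered length.

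The homoeologues differed in the size of these changes. In leaf the middle 30% rose from 1024 to 1550 ACRs on 7D, by 51.4%, while it rose by 22.7% on 7A and by 25.9% on 7B. At the ends in leaf the number fell by 14.8% on 7D, the steepest fall of the 21 chromosomes, fell by 9.69% on 7A and fell by 0.369% on 7B. In axillary bud the ends rose by 18.5% on 7D, the steepest rise of the 21 chromosomes, by 15.4% on 7A and by 11.2% on 7B. The ends of 7D therefore had the largest change of the 3 in both leaf and axillary bud, in opposite directions, and these differences between homoeologues were not tested. In the zone between the ends and the middle, the shoot apex gained most, by 47.2% on 7D, 37.9% on 7A and 27.0% on 7B.

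The rise in the middle of the leaf lists was concentrated in a few adjoining parts. On 7D the part from 50% to 55% of the length, from 319328064 to 351260869, held 117 ACRs in leaf and 329 in vernalized leaf, a rise of 181%. In axillary bud, vernalized axillary bud, shoot apex and vernalized shoot apex the same part held 134, 120, 126 and 104 ACRs. A rise in this part of 7D was thus seen in leaf alone. Of the 251 ACRs that leaf gained there, 215 were called in no other list, and their median width was 325 bp. They were spread along the part, with a median of 6 gained ACRs per 1 Mb window and a highest count of 21 over 31 windows.

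On 7B the largest rise lay nearer to the short arm, from 35% to 40% of the length (262705822 to 300235224), where leaf held 190 and vernalized leaf 349 ACRs. This rise of 83.7% included 238 gained ACRs, 181 of them in no other list. On 7A the part from 45% to 50% (331514345 to 368349272) held 205 and 302 ACRs, a rise of 47.3%. Vernalized leaf thus had regions of its own in the interior of each homoeologue, with the largest rise nearer to the short-arm end on 7B than on 7A and 7D. Where these parts lie relative to the centromeres was not tested. The gained ACRs in these parts had a median width of 283 bp on 7A, 260.5 bp on 7B and 325 bp on 7D. All ACRs gained in leaf on group 7 had a median of 321 bp. Of ACRs gained in leaf in the middle, 23.0% on group 7 and 24.3% on the other 18 chromosomes were called in another tissue. The 5 Mb window of 7B with the largest rise of any tissue lay within its part from 35% to 40%. It ran from 285000001 to 290000000, where leaf held 46 ACRs and vernalized leaf 85.

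**Figure D5:**
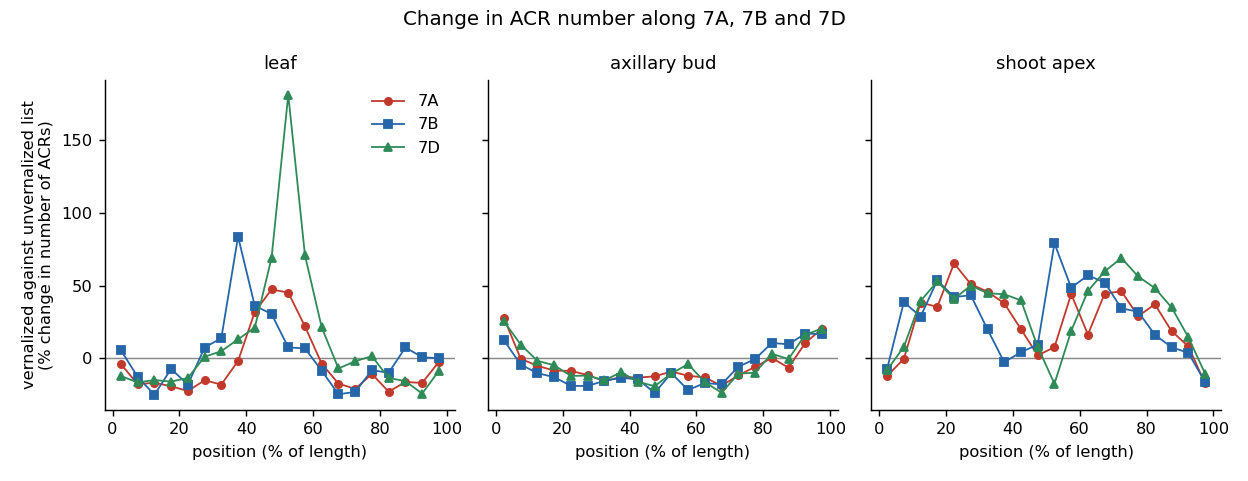
Change in the number of ACRs from the unvernalized to the vernalized list (vertical axis, percent) in 20 equal parts of 7A, 7B and 7D by position in percent of length (horizontal axis), for leaf, axillary bud and shoot apex. In leaf 7D reaches 181% between 50% and 55% of its length, axillary bud is above 0 near both ends, and shoot apex is above 0 in 17 of the 20 parts on each homoeologue.

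Other 5 Mb windows with large changes lay near the ends. On 7D the steepest fall was in leaf from 610000001 to 615000000, where 123 ACRs became 72, and the largest rise was in axillary bud from 15000001 to 20000000, where 136 became 201. On 7A the largest rise was in axillary bud from 25000001 to 30000000, from 104 to 185 ACRs. The steepest fall on 7A lay in shoot apex from 725000001 to 730000000, from 215 to 153, and that on 7B in shoot apex from 1 to 5000000, from 206 to 167. These were also the windows of 7A and 7B with the most consensus regions, and they fell in shoot apex only. The 7A window rose from 92 to 124 ACRs in leaf and from 134 to 181 in axillary bud, and the 7B window from 103 to 108 and from 162 to 180.

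Consensus regions that changed in a pair of tissues were rare on group 7. The most frequent class, lost from leaf but gained in the apex, held 1361 regions or 3.13%, against a background of 3.17%. Gains in both axillary bud and shoot apex followed, with 927 regions or 2.13%, against 2.07%. The class lost in axillary bud and gained in shoot apex held 886 regions or 2.04%, against 2.17%. A class named after its values were seen, regions lost in leaf and gained in axillary bud, numbered 158 on 7D, 109 on 7A and 92 on 7B, in all 359 or 0.825%, against 0.813%. None of these shares of the group was far from its background. Regions called in the 3 vernalized lists and no other numbered 9 on 7A, 10 on 7B and 12 on 7D, and those called in the 3 unvernalized lists and no other 8, 10 and 12. These made up 0.0712% and 0.0689% of group 7 consensus regions, against backgrounds of 0.0964% and 0.0888%. Both differences from the other 18 chromosomes were within counting error.

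Single sites were taken by width. The widest consensus region called in all 6 lists lay on 7D from 630523012 to 630539261, and spanned 16250 bp. Its ACRs covered 10268 bp in leaf, 5615 bp in vernalized leaf, 15950 bp in axillary bud, 14600 bp in vernalized axillary bud, 9790 bp in shoot apex and 12000 bp in vernalized shoot apex. The accessible length in leaf was thus lower after vernalization, and in shoot apex higher. On 7A the widest such region lay from 657710365 to 657722794 (12430 bp), with 5702 bp covered in leaf and 10700 bp in vernalized leaf. On 7B it lay from 712076304 to 712087768 (11465 bp), with 6907 bp and 6769 bp. Of these sites 7A had more accessible length in leaf after vernalization, 7D less, and 7B nearly the same.

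Among leaf regions called in both leaf lists and no other, the widest on 7B lay from 595790094 to 595799090, with 1857 bp covered before and 8997 bp after vernalization. On 7A it lay from 335970720 to 335978070, with 4511 bp and 7351 bp, and on 7D from 550979844 to 550985879, with 2227 bp and 5915 bp. All 3 were wider after vernalization. The number of such regions was 295 on 7A, 308 on 7B and 347 on 7D, in all 2.18% of group 7 consensus regions against a background of 2.08%.

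Among regions restricted to both bud lists the widest were narrower and went the other way. That on 7A, from 98730873 to 98733222, covered 2350 bp before and 450 bp after vernalization. The 7B region, from 75156393 to 75158542, covered 2150 bp and 350 bp, and the 7D region, from 127341031 to 127343480, covered 2450 bp and 800 bp. All 3 lay between 10.01% and 19.9% of the chromosome length. ACRs of group 7 were wider before vernalization in axillary bud as a whole, with medians of 650 bp and 450 bp. The direction at these sites, picked by width, is therefore not read as particular to them. Shoot apex had few regions of its own in both lists, namely 54 on 7A, 69 on 7B and 82 on 7D. They made up 0.471% of group 7 consensus regions, against a background of 0.420%. The difference from the other 18 chromosomes was within counting error. The widest such region on 7A (323414242 to 323415591) covered 204 bp before and 1350 bp after vernalization. On 7D (557350275 to 557351390) it covered 677 bp and 1050 bp. The 7B region (6892587 to 6893828) went the other way, with 817 bp and 550 bp.

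The widest ACRs lost from leaf were accessible in every other tissue. On 7A the ACR from 34916487 to 34921036 covered 4550 bp in leaf, axillary bud, vernalized axillary bud and shoot apex and 4544 bp in vernalized shoot apex, with none in vernalized leaf. On 7D the ACR from 263952432 to 263956549 covered 4118 bp in leaf and in axillary bud, 3781 bp in vernalized axillary bud, 2692 bp in shoot apex and 1585 bp in vernalized shoot apex, again with none in vernalized leaf. On 7B the ACR from 528752631 to 528755265 covered 2635 bp in leaf, and between 1750 bp and 2594 bp in the 4 bud and apex lists. At these sites vernalized leaf was the only list without an ACR.

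The widest ACR gained in leaf on 7A, from 540192985 to 540196112 (3128 bp), was called in vernalized leaf alone. Those on 7B and 7D were also called in bud or apex, over 650 bp or less on 7B (465586744 to 465588970) and over 801 bp or less on 7D (276515651 to 276518000). In axillary bud the widest lost ACRs of 7B, from 49183311 to 49186760 (3450 bp), and of 7D, from 123356476 to 123361125 (4650 bp), were called in unvernalized axillary bud alone. That of 7A, from 345218316 to 345220865 (2550 bp), was not. It was also called over 2450 bp in leaf, 2550 bp in vernalized leaf and 353 bp in shoot apex. On 7A the widest ACR gained in axillary bud, from 727578707 to 727582556, covered 3850 bp in vernalized axillary bud, 2183 bp in shoot apex and 1140 bp in vernalized shoot apex. The widest sites called in the 3 vernalized lists alone were 1336 bp wide on 7A (538784181 to 538785516), 1597 bp wide on 7B (483026325 to 483027921) and 2321 bp wide on 7D (575591218 to 575593538), and those called in the 3 unvernalized lists alone were 850 bp on 7A (643549823 to 643550672), 1303 bp on 7B (470525018 to 470526320) and 1550 bp on 7D (630609803 to 630611352).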

How the data were processed

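Groups were taken from the sample labels. As the methods of the study state, the authors trimmed ATAC-seq reads with fastp 0.21.0, aligned them to IWGSC RefSeq v1.0 with Bowtie2 2.3.5.1, filtered them on mapping quality with SAMtools 1.3.1, removed duplicates with Picard 2.16.0 and called peaks with MACS2 2.2.6. Peaks were divided into bins of 150 bp overlapping by 50 bp, filtered on Tn5 insertions and merged with bedtools, and peaks found also in input or of chloroplast origin were taken out. The deposited lists hold chromosome, start and end only. Whether replicates were pooled is not given in the sources used here. Mapping quality filters remove reads from repeats and from near-identical homoeologues first. How far the bin filter set ACR widths was not tested.

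Positions are given 1-based, and a position in the lists was assigned by the middle of the ACR. Overlap means at least 1 bp. Shares have Wilson intervals, differences of shares Newcombe intervals, and ratios intervals from Poisson counts. The functions were tested on simulated data. Python 3.11.15, numpy 2.4.6 and matplotlib 3.10.9 were used. Named sites are the widest ACR gained and lost per chromosome and tissue, at least 1 kb from any ACR of the opposite condition, the widest consensus region of each sharing class, and the 5 Mb windows with the most regions and the largest rise and fall. Members, lists and rules were chosen with earlier results of these data known. Input, gene context and sequence were not analysed here.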

Additional observations from a re-analysis of the deposited data

Results flagged for a closer look

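The changes below went in different directions in different tissues, and the differences between tissues were not tested. In shoot apex the number of ACRs on group 7 rose by 15.5%, while axillary bud fell by 0.548% and leaf fell by 3.12%. The other 18 chromosomes together changed by 16.7%, -0.915% and -1.80%, values close to those of group 7. In the middle 30% of the length it rose by 33.0% in leaf and by 23.8% in shoot apex, and fell by 13.9% in axillary bud. In the outer 10% at both ends it rose by 15.5% in axillary bud, fell by 9.49% in leaf and also fell by 3.52% in shoot apex.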

How the results depend on the processing

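No paired analysis was possible because each group had 1 list, although the labels number the samples alike, and for the same reason no replicate could be left out. Of 121 alternative values for the main results, 78 stayed within the 95% interval of the reported value (counts within 1.5 times), 41 moved further and 2 changed sign. The order 7D, 7A, 7B in density held in 6 lists under all 4 alternatives run, and group 7 had the lowest share of wide ACRs in 6 lists with ACRs up to 200 bp apart joined and in 5 with ACRs of at least 500 bp. The cause of a change was not tested. The density ratio of 7D to 7B over the 6 lists was 1.38, and 1.35 with ACRs up to 1000 bp apart joined and 1.43 by covered length. The excess of 7D over 7B in terminal ACRs over the 6 lists was 10.7 points, and 8.52 with the outer 5%, 6.13 with the outer 20% and 12.2 by covered length. For 7A over 7B it was 7.19 points, and 5.24 and 3.97 with the outer 5% and 20%. The excess of tissue-only ACRs on group 7 was 1.54 points over the unvernalized and 1.42 over the vernalized lists. It was 0.380 and 0.177 under a reciprocal overlap of 50%, and 2.50 and 2.21 with ACRs of at least 500 bp. The difference in retained share was -1.04 points in leaf and -0.100 in shoot apex under reciprocal overlap, while ACRs of at least 500 bp gave -2.84, -1.21 and -2.65 in leaf, axillary bud and shoot apex. Under reciprocal overlap 11181 ACRs were gained and 11325 lost in axillary bud, and 11661 were lost in shoot apex. With ACRs of at least 500 bp, 2967 were gained and 4014 lost in leaf, 1963 were gained in axillary bud, and 4292 were gained and 2386 lost in shoot apex. Consensus regions of such ACRs numbered 1959 in all 6 lists and 7462 in 1 list, and 2 of the 3 homoeologues, in place of 3, then lay below the other 18 chromosomes in the share called in all 6 lists.

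The alternatives for the change by zone were chosen after seeing the data. With the middle 20% and the outer 5%, the change was 43.7% in the middle and -5.07% at the ends in leaf, 21.2% at the ends in axillary bud and -11.6% at the ends in shoot apex. With ACRs of at least 500 bp it was 15.5% in the middle and -15.7% at the ends in leaf, -33.2% and 2.85% in axillary bud, and 32.9% and 3.66% in shoot apex. By covered length it was 22.9% in the middle and -16.2% at the ends in leaf, -32.5% and 1.81% in axillary bud, and 0.453% at the ends in shoot apex. With the 126351 widest ACRs of each list it was 3.89% in the middle and -17.3% at the ends in shoot apex. The fall at the ends in shoot apex thus turned into a rise under 2 of the 4 alternatives, while the rise in the middle of leaf and the fall in the middle of axillary bud kept their direction under all 4.

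Without read counts, what depth contributed to list length, width and overlap was not tested.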
